A study of Mus musculus with 6 samples.

Results

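The genes described here are 8 transcription factors of the primed epiblast, Otx2, Pou3f1, Sox3, Sox4, Sox11, Zic2, Zic5 and Foxd3, in mouse embryonic stem cells with lowered p/CIP. They were chosen by name, as every row of the array table whose annotated symbol is exactly 1 of the 8. All 8 were measured, by 9 of the 35556 probe sets, because Zic5 has 2 rows, and they are 8 of the 19938 genes tested. The study lowered p/CIP, the nuclear receptor coactivator encoded by Ncoa3, in embryonic stem cells of the E14 line. It compared 3 groups of 2 arrays each: cells transfected with p/CIP siRNA 1, cells transfected with p/CIP siRNA 2, and cells transfected with a control pool of siRNAs that have no specific target. All groups are wild-type cells of 1 line grown on plates. Nothing in the labels tells if replicates came from separate cultures, so the spread behind each p-value may be technical.

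Pluripotent cells of the early mouse embryo pass from a naive state, held in culture by factors such as Nanog, Klf4, Esrrb and Tbx3, to a primed state after implantation. Naive factors are shut off on the way, the core factors Pou5f1 and Sox2 stay on, and a new set of transcription factors is switched on or re-deployed. Otx2 and Pou3f1 are among the earliest of these, and Otx2 helps to move Pou5f1 to new enhancers. Several of the SOX and ZIC factors go on to act in neural progenitors. Foxd3 is active in both states and in neural crest.

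All values are on a log2 scale, so a difference of 1 is a doubling of signal. A level of 1 probe set cannot be set against that of another, and levels are compared only between arrays. Ncoa3 read 10.71 and 10.93 with siRNA 1, 10.71 and 10.92 with siRNA 2, and 12.33 and 12.28 with control siRNA, so the target was lower on all 4 knockdown arrays. The 6 stem cell markers Pou5f1, Sox2, Nanog, Sall4, Zfp42 and Utf1 were all measured, with mean log2 values from 12.26 to 12.38 on the knockdown arrays and of 12.54 and 12.44 on the control arrays. Array siRNA 1 replicate 2 stood apart, with an interquartile range over genes of 3.13 against 3.33 to 3.45 on the other 5, and each member's difference with siRNA 1 is therefore also given without it. Where leaving out an array left a group with 1, only the difference is given. The array medians lay between 7.77 and 7.84.

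The 3 promoters below are shown because their genes, Sox4, Zic5 and Foxd3, are members held by the RefSeq table (GRCm38.p6) whose 4 knockdown arrays all lay on the same side of both control arrays. For Zic5 this holds by the first of its 2 rows, while by the second 3 of the 4 arrays did. For the other members with that order, Pou3f1 and Zic2, no promoter is printed. Each runs 5′ to 3′ on the gene's own strand, from 250 bases before the annotated start to 50 after it. Capitals mark AGGTCA, the core element that many nuclear receptors bind, and CCAAT, a common promoter box, each searched on both strands.
Sox4, chr13:28953650-28953949, minus strand: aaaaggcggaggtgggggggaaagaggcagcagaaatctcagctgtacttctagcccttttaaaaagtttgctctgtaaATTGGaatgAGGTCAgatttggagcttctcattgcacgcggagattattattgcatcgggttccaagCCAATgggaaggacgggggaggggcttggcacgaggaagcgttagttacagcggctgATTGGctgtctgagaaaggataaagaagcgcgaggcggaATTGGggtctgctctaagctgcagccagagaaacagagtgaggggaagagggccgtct
Zic5, chr14:122465609-122465908, minus strand: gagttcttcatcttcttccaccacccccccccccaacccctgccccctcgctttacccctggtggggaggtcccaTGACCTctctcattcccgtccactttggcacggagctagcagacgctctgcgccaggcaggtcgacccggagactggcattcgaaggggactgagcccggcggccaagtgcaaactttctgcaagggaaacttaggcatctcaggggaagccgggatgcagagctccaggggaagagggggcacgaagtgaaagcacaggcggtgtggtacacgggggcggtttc
Foxd3, chr4:99656049-99656348, plus strand: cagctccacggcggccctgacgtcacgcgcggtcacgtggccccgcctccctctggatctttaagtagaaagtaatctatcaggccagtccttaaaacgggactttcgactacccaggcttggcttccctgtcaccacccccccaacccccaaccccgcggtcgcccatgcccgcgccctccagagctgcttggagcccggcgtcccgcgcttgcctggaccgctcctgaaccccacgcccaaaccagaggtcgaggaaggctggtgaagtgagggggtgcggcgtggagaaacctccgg

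The Sox4 window holds 1 AGGTCA and 4 CCAAT matches, the Zic5 window 1 AGGTCA and 0 CCAAT, and the Foxd3 window neither. AGGTCA is present in 16.3% and CCAAT in 37.4% of the 32851 promoter windows of the same length. These are letter matches only. The 2 motifs do not overlap in any of the 3 windows.

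The 8 factors did not share a direction. Over both siRNAs against control, Pou3f1, Otx2, Sox4, Sox11 and Sox3 had higher values by 0.18 to 0.37 on the log2 scale, and Zic2, Zic5 and Foxd3 had lower values by 0.18 to 0.34. None of the 8 passed limma's test at an adjusted p under 0.05, a call that 0.0702% of all genes received, all of them lower. At an unadjusted p under 0.05, 3 members were higher (Pou3f1, Otx2 and Sox4) and 3 were lower (Zic2, Zic5 and Foxd3), against 3.86% of all genes higher and 4.86% lower. The arrays did not overlap for 2 members above control and 3 below it, against 8.83% and 10.1% of all genes. Zic5 enters both counts by its first row, whose annotation is in doubt as described below. By its second row (difference -0.15, adjusted p = 0.702) it enters neither, which leaves 2 members below control in each. A fit with the replicate number as a block called 0 members as well, and 0.341% of all genes. The median difference of the 8 was 0.20, beside 0.01 over all genes.

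**Figure D1:**
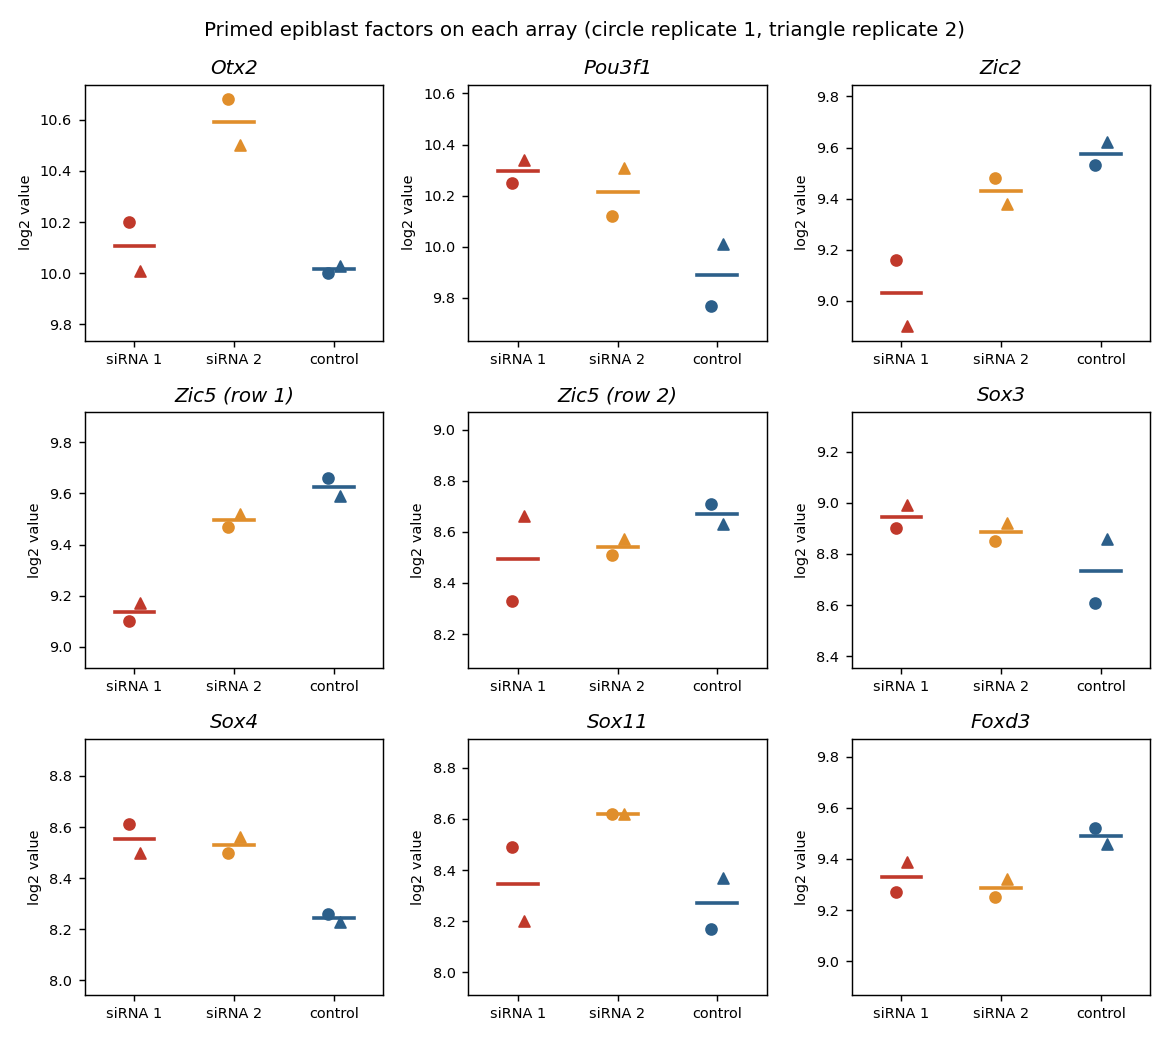
Log2 value of each of the 9 probe sets (y axis, each panel spanning 1 log2 unit) on the 2 arrays of each group: p/CIP siRNA 1, p/CIP siRNA 2 and control siRNA, with lines at the group means. Otx2 and Sox11 were highest with siRNA 2, Zic2 and the first Zic5 row were lowest with siRNA 1, and Pou3f1, Sox4 and Foxd3 lay at similar levels with both siRNAs.

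Otx2, a homeobox factor that drives the step from naive to primed pluripotency, had its highest values with siRNA 2. It read 10.20 and 10.01 with siRNA 1, 10.68 and 10.50 with siRNA 2, and 10.00 and 10.03 with control siRNA. Both siRNA 2 arrays lay above all others, while siRNA 1 replicate 2 lay between the controls. With siRNA 2 Otx2 was 1.49-fold higher than control (log2 difference 0.57, standard error 0.102, limma adjusted p = 0.332). With siRNA 1 the difference was 0.09 (95% interval -0.15 to 0.33, adjusted p = 0.708), and it ran from -0.01 without siRNA 1 replicate 1 to 0.18 without siRNA 1 replicate 2. Pooled over both siRNAs it was 0.33 (standard error 0.0885, adjusted p = 0.339).

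Pou3f1, the POU factor also called Oct6, marks the epiblast after implantation and later acts in neural and glial cells. It read 10.25 and 10.34 with siRNA 1, 10.12 and 10.31 with siRNA 2, and 9.77 and 10.01 with control siRNA. All 4 knockdown arrays lay above both controls, which were 0.24 apart. Its pooled difference of 0.37 (1.29-fold, standard error 0.0987, adjusted p = 0.338) was the largest upward value among the 8. The difference was 0.41 with siRNA 1 (0.37 without siRNA 1 replicate 2) and 0.33 with siRNA 2. The pooled value was 0.25 without control replicate 1 and 0.49 without control replicate 2. Replicate 2 was the higher array in every group, and with the replicate number as a block the pooled limma adjusted p of Pou3f1 was 0.0752.

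The SOX members all had values above control, with different patterns. Sox4, an SRY-related factor of progenitor cells, read 8.61 and 8.50 with siRNA 1, 8.50 and 8.56 with siRNA 2, and 8.26 and 8.23 with control siRNA. The groups did not overlap, and both siRNAs gave nearly the same value, with 0.31 for siRNA 1 (0.36 without siRNA 1 replicate 2) and 0.29 for siRNA 2. Its pooled difference was 0.30 (1.23-fold, standard error 0.0708, adjusted p = 0.286), the smallest p among the higher members in the fit without a block. With the replicate number as a block, Pou3f1 had the smallest p among them.

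Sox11, the close relative of Sox4 within the SoxC group, read 8.49 and 8.20 with siRNA 1, 8.62 and 8.62 with siRNA 2, and 8.17 and 8.37 with control siRNA. The siRNA 2 arrays lay above the rest, while of the siRNA 1 arrays 1 lay above both controls and the other between them. The difference from control was 0.35 with siRNA 2 (standard error 0.12, adjusted p = 0.791) and 0.07 with siRNA 1 (95% interval -0.21 to 0.36). Without siRNA 1 replicate 2 the siRNA 1 value was 0.22. Without siRNA 1 replicate 1 or control replicate 1 it turned, to -0.07 and -0.03.

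Sox3, a SoxB1 relative of Sox2 that acts in the epiblast and neural plate, read 8.90 and 8.99 with siRNA 1, 8.85 and 8.92 with siRNA 2, and 8.61 and 8.86 with control siRNA. The siRNA 2 arrays overlapped the controls, whose 2 arrays differed by more than the knockdown arrays did. The pooled difference was 0.18 (standard error 0.0911, adjusted p = 0.62). It was 0.05 without control replicate 1 and 0.31 without control replicate 2, so its size rests on which control array is used. Replicate 2 was the higher array in every group, and with the replicate number as a block the pooled adjusted p was 0.24. With siRNA 1 the difference was 0.21, or 0.17 without siRNA 1 replicate 2.

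The ZIC members had values below control, and for Zic2 more so with siRNA 1. Zic2, a zinc finger factor that binds enhancers in stem cells and is needed in forebrain development, read 9.16 and 8.90 with siRNA 1, 9.48 and 9.38 with siRNA 2, and 9.53 and 9.62 with control siRNA. Every siRNA 1 array lay below every siRNA 2 array, and those lay below both controls. With siRNA 1 Zic2 was at 68.6% of control (log2 difference -0.54, standard error 0.108, adjusted p = 0.173). It was at -0.41 without siRNA 1 replicate 2, and at -0.67 without siRNA 1 replicate 1. That last value rests on 1 siRNA 1 array, the one that stood apart. With siRNA 2 the difference was -0.14 (95% interval -0.40 to 0.11).

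Zic5 has 2 rows that do not tell the same story. The first, with the higher mean, which stood for the gene in the test, read 9.10 and 9.17 with siRNA 1, 9.47 and 9.52 with siRNA 2, and 9.66 and 9.59 with control siRNA, in the same order of groups as Zic2. The second read 8.33 and 8.66 with siRNA 1, 8.51 and 8.57 with siRNA 2, and 8.71 and 8.63 with control siRNA. Its siRNA 1 arrays lay 0.33 apart and overlapped the controls. By the first row Zic5 was at -0.48 with siRNA 1 (1.4-fold lower, standard error 0.0803). Without siRNA 1 replicate 2 it was at -0.52. The adjusted p was 0.13, or 0.0476 when the replicate number was a block. By the second row it was at -0.17 (standard error 0.12), with an adjusted p of 0.543, or 0.351 with that block. Leaving out siRNA 1 replicate 2 moved the second row's value to -0.34, and leaving out replicate 1 moved it to -0.01. With siRNA 2 the second row was at -0.13.

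The annotation of the first Zic5 row was set against its surroundings. RefSeq places Zic5 on chromosome 14, next to Zic2, with 0 protein-coding genes between them. Of the 10 named rows with the nearest probe set identifiers, 0 were annotated to genes of chromosome 14 around the first Zic5 row and all 10 to genes of chromosome 11. Around the second row 9 of 10 were genes of chromosome 14, and around the Zic2 row 9 of the 9 with a chromosome. The other members' rows likewise had 9 or 10 neighbours on the gene's own chromosome. Such a row with no neighbour on its gene's chromosome is seen for 2.72% of the 21688 rows examined. What the first row hybridises to was not tested, and its value is given here as that of a row annotated to Zic5.

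Foxd3, a forkhead factor that stem cells and the epiblast need, read 9.27 and 9.39 with siRNA 1, 9.25 and 9.32 with siRNA 2, and 9.52 and 9.46 with control siRNA. All 4 knockdown arrays lay below both controls, by small amounts. The pooled difference was -0.18 (1.14-fold lower, standard error 0.0735, adjusted p = 0.55). It was -0.16 with siRNA 1 and -0.21 with siRNA 2. With siRNA 1 replicate 2 left out the siRNA 1 value was -0.22, and with replicate 1 left out it was -0.10.

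**Figure D2:**
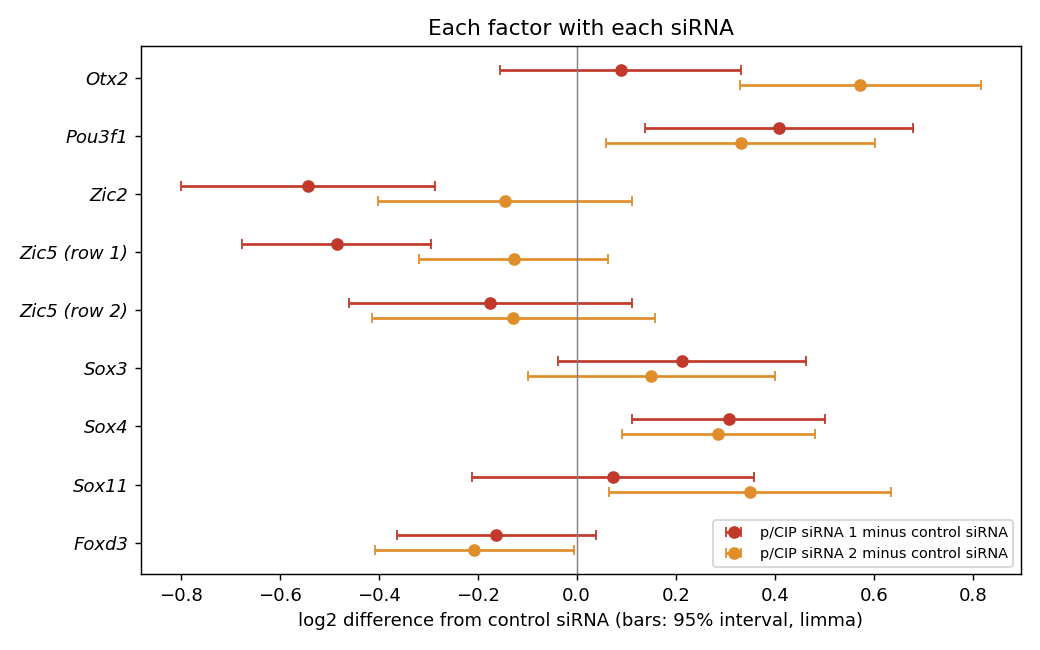
Log2 difference from control siRNA (x axis) of each probe set (rows) with p/CIP siRNA 1 and p/CIP siRNA 2, with 95% intervals from limma. The intervals of Pou3f1 and Sox4 lay above 0 for both siRNAs, and those of Otx2 and Sox11 only for siRNA 2. Those of Zic2 and the first Zic5 row were below 0 only for siRNA 1, and that of Foxd3 only for siRNA 2. Both sets of values share the same 2 control arrays.

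The siRNAs were then compared with each other. Between siRNA 2 and siRNA 1, Otx2 differed by 0.48 (95% interval 0.24 to 0.73, adjusted p = 0.424), Zic2 by 0.40 (0.14 to 0.65, adjusted p = 0.573), the first Zic5 row by 0.36 (0.17 to 0.55, adjusted p = 0.472) and Sox11 by 0.28 (-0.01 to 0.56, adjusted p = 0.723). Without siRNA 1 replicate 2 these differences were 0.39 for Otx2, 0.27 for Zic2, 0.39 for the first Zic5 row and 0.13 for Sox11. The Sox11 value was 0.42 without siRNA 1 replicate 1. For these 4 of the 8 members both siRNA 2 arrays lay above both siRNA 1 arrays, an order that 15.2% of all genes had. For 3 of them the unadjusted p was under 0.05, against 3.36% of all genes in that direction. None passed after adjustment, and neither did any of the 19938 genes (0%), of which 1376 had an unadjusted p under 0.05. With the replicate block limma called 15 genes (0.0752%), and 0 of the members.

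Markers of other cell types were read in the same comparison. Of 8 trophoblast markers 7 had lower values with siRNA 2 than with siRNA 1 (median -0.26), 4 of them without overlap between the arrays, against 20.0% of all genes. These included Hand1 (-0.44) and the homeobox gene Cdx2 (-0.47). All 7 neural crest markers (median -0.13) and 7 of 9 extraembryonic endoderm markers (median -0.17) were also lower, as 58.1% of all genes were. By array, the neural crest median deviation from the control mean was 0.02 and 0.22 with siRNA 1 and 0.06 and -0.01 with siRNA 2. The endoderm median was -0.12 and 0.50 with siRNA 1 and -0.13 and 0.25 with siRNA 2. The trophoblast median was 0.14 and 0.32 with siRNA 1 and -0.14 and 0.05 with siRNA 2. In each list the highest array was siRNA 1 replicate 2, which stood apart. None of these markers passed after adjustment, and their part in the members' differences was not tested.

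The other 4 members differed little between the siRNAs. The difference was -0.08 for Pou3f1 (95% interval -0.35 to 0.19), -0.06 for Sox3 (-0.31 to 0.19), -0.02 for Sox4 (-0.21 to 0.17) and -0.04 for Foxd3 (-0.25 to 0.16). For Sox3 and Foxd3 the interval reached a difference as large as the gene's own pooled difference from control, and for Pou3f1 and Sox4 it stopped short of that. By the second Zic5 row the siRNAs differed by 0.05 (-0.24 to 0.33). Ncoa3 itself read the same with both siRNAs, as given above.

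Against control alone, siRNA 1 gave 0 called members (0.0702% of all genes), with 2 higher (Pou3f1 and Sox4) and 2 lower (Zic2 and the first Zic5 row) at an unadjusted p under 0.05, against 5.78% and 6.37% of all genes. Its arrays did not overlap the controls for 3 members above and 3 below (22.9% and 20.5% of all genes), or 2 below by the second Zic5 row. The replicate block called 1 member, the first Zic5 row, and 1.21% of all genes. SiRNA 2 gave 0 called members (0% of all genes), with 4 higher (Otx2, Sox4, Sox11 and Pou3f1) and 1 lower (Foxd3) at an unadjusted p under 0.05, against 2.25% and 2.99% of all genes. Its arrays did not overlap the controls for 4 members above and 3 below (16% and 19.8% of all genes), and the block called 0 members (0.13% of all genes).

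The factors were set beside genes of the naive state, to see whether they moved together with an exit from it. Of 18 naive regulators, 16 had values below control over both siRNAs (median difference -0.36), and 15 did so without overlap between the arrays. Over all genes the shares were 47.7% and 10.1%. Of the 18, 2 passed limma's test and 5 did with the replicate block, against 0.0702% and 0.341% of all genes. The 2 were the nuclear receptor gene Nr0b1 (-0.87, standard error 0.0727, adjusted p = 0.0347) and the T-box gene Tbx3 (-0.91, standard error 0.0926, adjusted p = 0.0388). Klf4 (-0.78, adjusted p = 0.134, and 0.018 with the block) and Esrrb (-0.50, adjusted p = 0.186, and 0.0386 with the block) followed. The 4 core factors Pou5f1, Sox2, Sall4 and Tdgf1 lay between -0.13 and -0.04, with 0 called. The lower values of Zic2, the Zic5 rows and Foxd3 thus had the sign of the naive regulators, and those of the other 5 members the opposite sign.

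By array, the naive regulators had a median deviation from the control mean of -0.29 and -0.55 with siRNA 1 and -0.28 and -0.40 with siRNA 2. The members' median deviation on the same arrays was 0.18 and -0.04 with siRNA 1 and 0.18 and 0.25 with siRNA 2. The array with the lowest naive regulators, siRNA 1 replicate 2, thus also had the lowest median of the primed factors. It is the array that stood apart by its interquartile range. The medians of the 4 core factors (-0.20) and the 6 stem cell markers (-0.21) were lowest on it too. Whether these share a cause was not tested. On that array Otx2, at 10.01, and Sox11, at 8.20, were at control level, while Pou3f1, at 10.34, was at its highest.

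**Figure D3:**
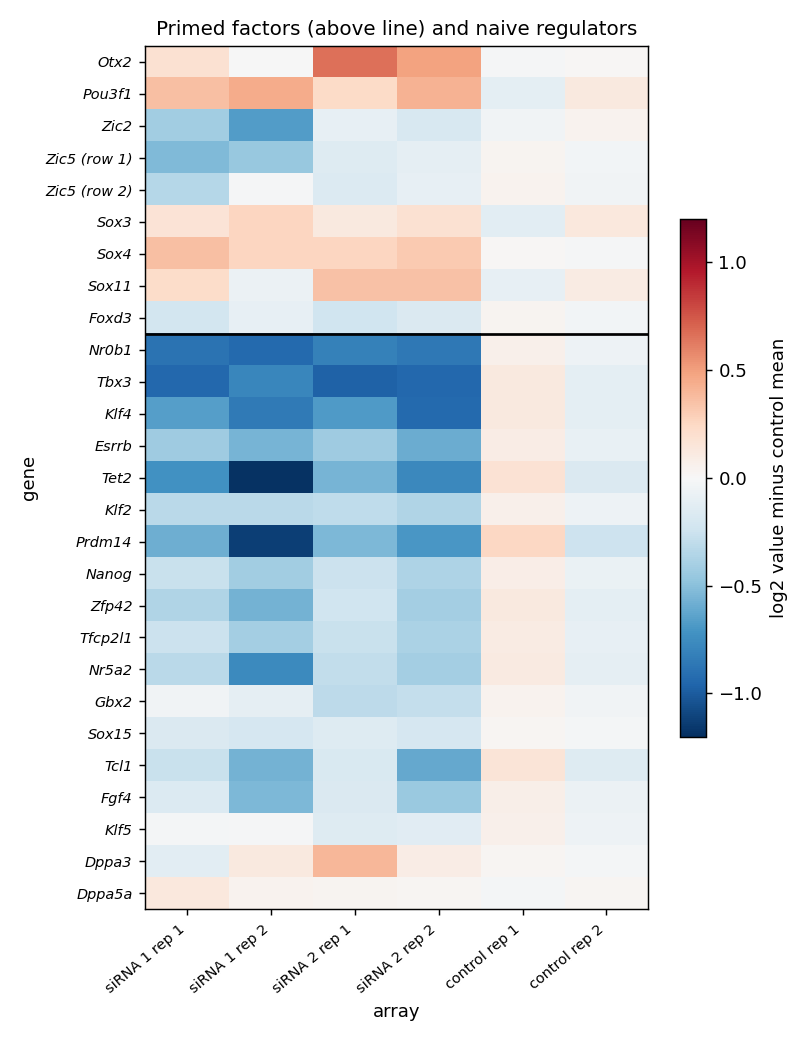
Log2 value minus the mean of the 2 control arrays (colour) for the 9 probe sets of the primed factors, above the line, and the 18 naive regulators, below it, on each of the 6 arrays. Nearly all naive regulators are blue on the 4 knockdown arrays, while Otx2, Pou3f1, Sox3, Sox4 and Sox11 are mostly red and Zic2, Zic5 and Foxd3 mostly blue.

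Other genes of the primed epiblast also lay on both sides of control. Of 16 measured, 9 had values above control and 7 below it (median 0.01), and 0 passed limma's test. Fgf5, a growth factor of the epiblast, came closest. It read 8.78 and 8.66 with siRNA 1, 9.24 and 9.28 with siRNA 2, and 8.30 and 8.35 with control siRNA. Its pooled difference was 0.67 (adjusted p = 0.053, and 0.0269 with the block). The knockdown arrays did not overlap the controls for 5 of the 16 genes above control and 2 below it, against 8.83% and 10.1% of all genes. The 2 below were Etv4 (-0.29) and Foxp1 (-0.14).

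Between siRNA 2 and siRNA 1, Fgf5 differed by 0.54, in the direction of Otx2 and by a like amount. Sall2, a zinc finger factor, had the same shape, with 8.17 and 7.99 with siRNA 2 and 7.74 and 7.75 with siRNA 1, against 7.27 and 7.53 with control siRNA. Lef1, an effector of WNT signalling, had nearly equal differences of 0.41 with siRNA 1 and 0.42 with siRNA 2, as Sox4 and Pou3f1 did. Cldn6, a tight junction gene, was 0.23 higher over both siRNAs. The de novo methyltransferase gene Dnmt3a read 9.65 and 9.42 with siRNA 2 and 9.28 and 9.22 with siRNA 1, against 9.42 and 9.35 with control siRNA. Its difference from control was 0.15 with siRNA 2 (limma adjusted p = 0.999) and -0.13 with siRNA 1 (adjusted p = 0.575), so neither was called. Between the siRNAs the difference was 0.29 (adjusted p = 0.696), which the pooled value of 0.01 does not show. Its relative Dnmt3b, at 0.02, and Lin28a, at -0.02, overlapped control with both siRNAs.

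Relatives of the members and regulators of the exit gave small differences. Of 13 measured regulators of exit from the naive state 0 were called, and 9 lay below control (median -0.05). The lowest was Tcf7l1, a repressor of naive genes, at -0.17 (adjusted p = 0.542), followed by the Notch effector gene Rbpj (-0.16), Zfp281 (-0.15) and the kinase gene Gsk3b (-0.13). Of 16 other Sox genes 0 were called and 8 lay on each side (median -0.00), with Sox9 at 0.20, Sox14 at 0.18, Sox15 at -0.18 and Sox21 at -0.23. Among 10 measured ZIC, OTX, POU3 and FOXD relatives 0 were called and 7 lay above control (median 0.07). Of these Crx (0.29), Pou3f3 (0.24), Foxd4 (0.23) and Zic4 (0.09) had the smallest p. For all 10 the knockdown arrays overlapped the controls. Their mean log2 value was 6.75 to 6.93 on the knockdown arrays and 6.71 and 6.82 on the control arrays.

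**Figure D4:**
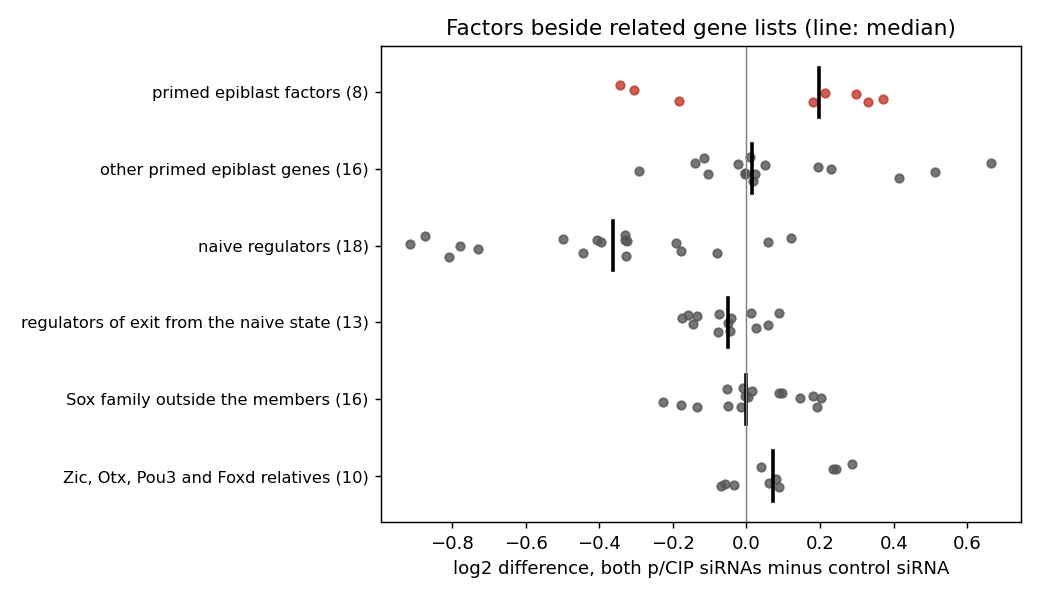
Log2 difference of both p/CIP siRNAs minus control siRNA (x axis) for each measured gene of 6 lists (rows, number of genes in brackets), with a line at each median. The 8 primed factors fall on both sides of 0, from -0.34 to 0.37, while 16 of the 18 naive regulators lie below 0.

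Several members are also expressed in other cell types, and markers of those were read on the same arrays. Of 10 measured neural ectoderm markers 5 lay above control (median 0.00), with Tubb3 at -0.32 and Pax6 at -0.14, and their mean log2 value was 7.66 to 7.79 on the knockdown arrays and 7.73 on both control arrays. Of 7 neural crest markers 4 lay above (median 0.11), with Twist1 at 0.26 and Sox9 at 0.20, and a mean of 7.36 to 7.59 against 7.36 and 7.41. For 10 measured markers of the primitive streak and mesoderm, 5 were above (median 0.03), with Eomes at 0.29 and Evx1 at -0.14, and a mean of 7.51 to 7.65 against 7.50 and 7.54. In all 3 lists 0 genes were called. Otx2 is also a gene of visceral endoderm.

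All 9 extraembryonic endoderm markers lay above control over both siRNAs (median 0.16, with Sox7 at 0.19 and Pdgfra at 0.17, 0 called). Their mean was 8.16 and 8.81 with siRNA 1, 8.13 and 8.54 with siRNA 2, and 8.04 and 8.50 with control siRNA, so that replicate 2 was the higher array in every group. Of 8 trophoblast markers 7 lay above control (median 0.08), with Plet1 at 0.41 and Ascl2 at 0.30. The median was 0.24 with siRNA 1 and -0.09 with siRNA 2, and the mean level was 8.80 and 8.90 with siRNA 1, 8.54 and 8.72 with siRNA 2, and 8.60 and 8.66 with control siRNA. The 7 fibroblast feeder markers, 5 of them above control (median 0.07), with Thy1 at 0.35 and Dcn at 0.07, averaged 6.75 to 6.97 against 6.75 and 6.85. Dcn was at -0.13 with siRNA 1 and at 0.28 with siRNA 2, and neither value was called. The part of any of these cell types in the members' values was not tested, and in bulk RNA fewer cells of a type and less RNA per cell cannot be told apart.

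The first Zic5 row had the smallest p of the member rows over both siRNAs in the fit without a block. The genes whose pattern over the 6 arrays was most like that row's were Slc9b1 (Pearson r = 0.996), Plekha3 (0.996) and Pomk (0.992), among 9724 genes compared. They are named as a description only, since 292 of those genes had an r over 0.9 and all values share the same 6 arrays. Plekha3 read 11.47 and 11.49 with siRNA 1, 11.66 and 11.69 with siRNA 2, and 11.75 and 11.70 with control siRNA.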

How the data were processed

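The deposited table holds 1 value on a log2 scale per probe set and array, as the authors processed them. The log base was inferred from the range of 2.69 to 14.6. The submitters' processing notes name Partek; its version, the background correction and the normalization are not stated in the sources. The 6 array columns were mapped by the labels' titles.

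Symbols came from GEO's platform annotation, which gave 1 symbol to 21789 probe sets, several to 1621 and none to 12146. The probe set with the highest mean stood for each gene, which left 19938 genes. All 6 arrays were fitted together in limma 3.58.1 (R 4.3.3) with 1 coefficient per group, lmFit and eBayes without trend, and no filter. Tests were two-sided, with Benjamini-Hochberg adjustment over all genes and calls under 0.05. The second Zic5 row was tested in the same fit in place of the first. The number of arrays limits the precision.

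After subtraction of group means, arrays of equal replicate number correlated at 0.461 between siRNA 2 and siRNA 1, 0.464 between siRNA 1 and control and 0.407 between siRNA 2 and control. These were treated as pairs, from the data and not the labels, and a fit with them as a block was an alternative. The members and the 13 gene lists were chosen with earlier results of these data known. The genes named beside the members are Ncoa3, called genes and up to 4 of smallest p from each pathway list. Up to 2 from each cell type list and the 3 most like the member of smallest p were also named. Dnmt3a, Dnmt3b, Lin28a, Etv4, Foxp1, Hand1 and Cdx2 were named after their values were seen. Promoters are RefSeq's, and 5 of the 8 members matched.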

Additional observations from a re-analysis of the deposited data

How the results depend on the processing

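Over both siRNAs, each member kept its sign under all of the 12 kinds of alternative. In the fits that kept both arrays of every group, 0 members were called. With all probe sets tested, with the block of array codes or without limma's moderation, 0 of 19938 genes were called. In those fits the members' 0 cannot tell whether the result holds. Other fits did call genes, such as 15 lower and 0 higher with array medians aligned and 62 lower and 6 higher with the replicate block. With siRNA 1, 1 member was called instead of 0 in 3 alternatives, each time the first Zic5 row. Its limma adjusted p was 0.0476 with the replicate block and 0.0436 with an intensity trend and robust moderation. It was 0.0455 with only genes above the median level tested. Calls over all genes rose as well, from 14 in the main fit. They were 241 (1.21%) with the block, and 127 lower and 23 higher with the trend and robust moderation. Of the 9969 genes above the median level, 73 were called lower and 12 higher. The block changed no other member's call. By the second Zic5 row, an alternative added after seeing the data, 0 were called. Leaving out 1 array moved the members' median between 0.0829 and 0.295 over both siRNAs, between -0.0377 and 0.177 for siRNA 1, between 0.117 and 0.275 for siRNA 2, and between 0.0759 and 0.178 for siRNA 2 against siRNA 1. For siRNA 1 the median was 0.123 after quantile normalization, against 0.0812. Between the siRNAs it was 0.128, or 0.0907 with the mean of a gene's probe sets and 0.0130 with the second Zic5 row. Among single members, Otx2 with siRNA 1 ran from -0.00680 to 0.184 over arrays left out and Sox11 from -0.0686 to 0.216. Between the siRNAs the values near 0 of Sox4 (-0.0769 to 0.0359, and 0.00552 with array medians aligned), Foxd3 (-0.105 to 0.0170) and Pou3f1 (-0.174 to 0.0180) changed sign over arrays left out, as did the second Zic5 row (-0.122 to 0.215), a check added after seeing the data. The causes were not tested. The naive list stayed at 16 of 18 below control, and the other primed list ranged from 7 to 12 of 16 above it. The calls of the naive regulators Nr0b1 and Tbx3 over both siRNAs depended on the setting. Neither was called with all probe sets tested, with the block of array codes or without limma's moderation, where 0 genes were called.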
